A study of Rattus norvegicus with 9 samples.

Results

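The genes described here are 42 rat genes of the DNA replication machinery, read in the livers of 9 rats. They were chosen by symbol, and a probe was assigned to a gene when the RefSeq accession printed on the array design led to that symbol or a synonym of it. By this rule 37 of the 42 genes had a probe, with 49 probes of 41012 on the array. No probe was matched to Mcm3, Mcm5, Gins1, Chaf1a or Uhrf1, which were not analysed here. A probe was tested when 1 or more of the groups had it well above background in all 3 of its rats, which left 31 of the 42 genes, beside 9604 named genes of 13438 in the whole series.

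Replication starts at origins that are licensed in G1, when the origin recognition complex, Cdc6 and Cdt1 load the MCM ring onto DNA. In S phase Cdc45 and the GINS complex join MCM to form the active helicase, and polymerases, sliding clamp, ligase, deoxynucleotide enzymes and histone chaperones follow the fork. Most of these genes are classical targets of the E2F transcription factors, and adult liver, in which most hepatocytes rest outside the cycle, is known for low levels of many of them.

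Liver total RNA of 9 male Wistar rats was labelled with Cy3 and hybridized to one-colour Agilent arrays, 1 rat per array, in 3 groups of 3. Control rats were neither given Hong Shan Capsule (HSC) nor irradiated. TBI rats received 6.5 Gy of total-body irradiation from a 60Co source. HSC + TBI rats received HSC, a preparation of several medicinal plants, by stomach tube in water for 3 days before the same exposure. The sample labels give the HSC dose as 30 mg/kg/day, whereas the series text gives 10 g/kg/day, and the dose entered no calculation. Livers were taken 24 h after exposure. Per the study's methods, control rats were not placed in the containers used for exposure. The age of the rats is not given in the sources used here, and no group with HSC alone was among the samples. Rats of a group are separate samples, and nothing in the labels says that RNA was pooled.

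Control arrays lay on 1 slide and TBI arrays on another, HSC + TBI 1 and 3 shared the third slide, and HSC + TBI 2 was on the fourth, so slide and group cannot be told apart. The share of probes well above background was 56.6% to 59.3% on control arrays, 63.6% to 69.5% on TBI arrays and 58.7% to 60.4% on HSC + TBI arrays. All 10 hepatocyte markers, among them albumin and transthyretin, were above background on every array, and their summed signal was 1704948 to 1788212 in controls, 1671529 to 1889896 after TBI and 1727477 to 1790722 after HSC + TBI. In bulk liver, fewer cells of a type and less RNA per cell cannot be told apart.

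Since many of these genes are known E2F targets, stretches of their promoters are shown first. RefSeq promoter windows of assembly GRCr8, running from 250 bases before the annotated start to 50 bases from it on, were at hand for 36 of the 42 genes and were searched on both strands. The E2F sites searched were TTTCGCGC, TTTGGCGC and TTTCCCGC. At least 1 of them lay in 16 of 36 windows (44.4%), against 529 of 27457 genes with a window (1.93%) and 272 of 7874 tested genes with a window (3.45%). The 4 stretches below were picked after the results were known, from 3 genes that fell after TBI and the 1 that rose. Each is the 150 bases just before the start, 5′ to 3′ on the strand of the gene, with E2F sites in capitals.

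Mcm6, chr13:42404353-42404502 (GRCr8, minus strand): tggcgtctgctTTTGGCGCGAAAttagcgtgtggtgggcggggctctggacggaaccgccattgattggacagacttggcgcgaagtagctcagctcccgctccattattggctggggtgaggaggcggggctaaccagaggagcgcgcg
Mcm2, chr4:122918095-122918244 (GRCr8, minus strand): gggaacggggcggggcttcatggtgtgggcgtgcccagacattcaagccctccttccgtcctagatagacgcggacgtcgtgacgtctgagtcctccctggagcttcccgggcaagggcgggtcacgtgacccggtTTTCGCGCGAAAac
Gins3, chr19:9434680-9434829 (GRCr8, minus strand): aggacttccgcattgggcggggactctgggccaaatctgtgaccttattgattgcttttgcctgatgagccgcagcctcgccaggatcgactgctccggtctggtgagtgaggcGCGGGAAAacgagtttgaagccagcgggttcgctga
Tyms, chr9:120776084-120776233 (GRCr8, minus strand): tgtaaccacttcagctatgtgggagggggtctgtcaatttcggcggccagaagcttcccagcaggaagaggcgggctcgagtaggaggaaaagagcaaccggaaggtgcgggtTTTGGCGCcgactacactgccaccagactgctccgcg

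In Mcm6 and Mcm2 a pair of sites on opposite strands overlapped, which gives the 12 capitals. In Gins3 the site is TTTCCCGC read on the opposite strand, and in Tyms it is TTTGGCGC on the strand of the gene. TTTCGCGC was in 9 member windows (25.0%), against 0.361% of all genes with a window and 0.648% of tested ones. TTTGGCGC was also in 9 member windows, against 0.554% and 0.978%, and TTTCCCGC in 6 (16.7%), against 1.09% and 1.97%. The NF-Y motif CCAAT was in 22 member windows (61.1%), against 39.6% of all genes and 39.5% of tested ones. The cell-cycle homology motif TTTGAA was in 4 (11.1%), against 19.4% of all genes and 12.8% of tested ones. Among members that had a window, an E2F site lay in 7 of 13 that fell after TBI, in 3 of 13 that were tested and not called, and in Tyms, the one that rose. It also lay in 5 of 9 that had no probe or were not tested. These matches are a description of the letters and were not tested against the response.

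Levels are given as log2 signal, quantile-normalized over the 9 arrays, in the order of replicates 1, 2 and 3, and are not comparable between genes. A gene was called changed when its probe, the brightest tested one of the gene, passed a Benjamini-Hochberg adjusted p under 0.05 over all 25367 tested probes in limma and a fold change of at least 1.5.

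The first question was what TBI alone did to these genes. After TBI, 15 of the 31 tested genes fell and 1 rose, Tyms. Those that fell included the origin licensing genes Cdt1 and Gmnn, the helicase genes Mcm2, Mcm4, Mcm6, Cdc45 and Gins3, the polymerase genes Prim1 and Pold1, and E2f1. Of all named genes tested, 3.92% were called lower and 3.87% higher. In 28 of the 31 the TBI mean lay below the control mean, and the median log2 fold change was -0.64, against 0.01 over all named genes tested. Filtering can favour genes that are high in 1 group, so the same was read in the 26 members above background on all 9 arrays: 12 fell, 1 rose, and the median was -0.64. Without a filter, 34 of the 37 genes with a probe were lower, with a median of -0.64. TBI and control rats did not overlap for 24 of the 31 genes, 23 lower and 1 higher after TBI, beside 15.7% lower and 14.3% higher of all named genes tested.

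**Figure D1:**
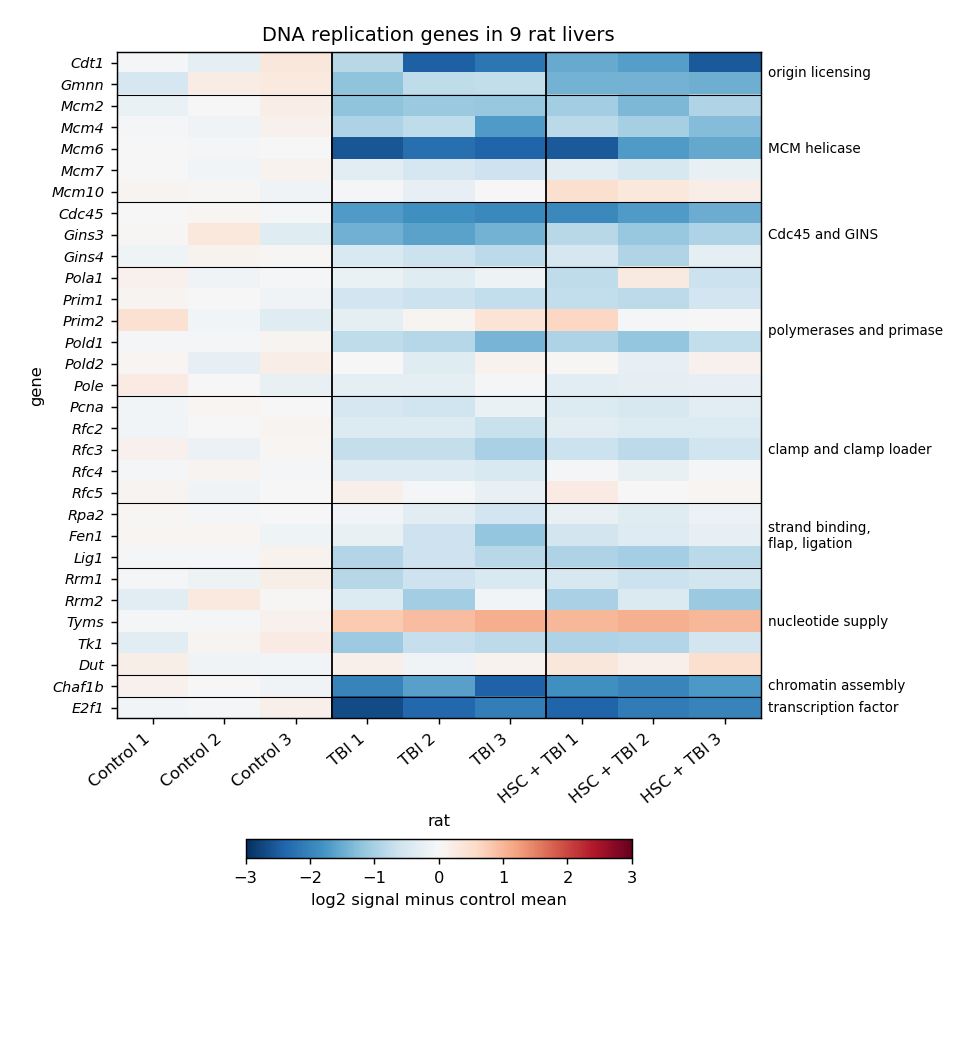
Colour gives the log2 signal of each of the 31 tested DNA replication genes (rows, grouped by role) in each of the 9 rats (columns), minus the mean of the 3 controls; blue is lower and red is higher. The 6 irradiated rats are blue for most genes, most deeply for E2f1, Mcm6, Cdt1, Cdc45 and Chaf1b, while Tyms is red in all 6.

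The shift was present in each irradiated rat. Over the 26 genes above background everywhere, the median difference from the control mean was -0.48, -0.62 and -0.70 (log2) in the 3 TBI rats and -0.49, -0.56 and -0.36 in the 3 HSC + TBI rats. In the 3 controls it was -0.02, -0.03 and 0.04. Over the 8530 named genes that were above background on all 9 arrays it stayed between -0.03 and 0.03 in every rat. So 22, 24 and 21 of the 26 genes were below the control mean in the TBI rats, and 20, 23 and 21 in the HSC + TBI rats.

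**Figure D2:**
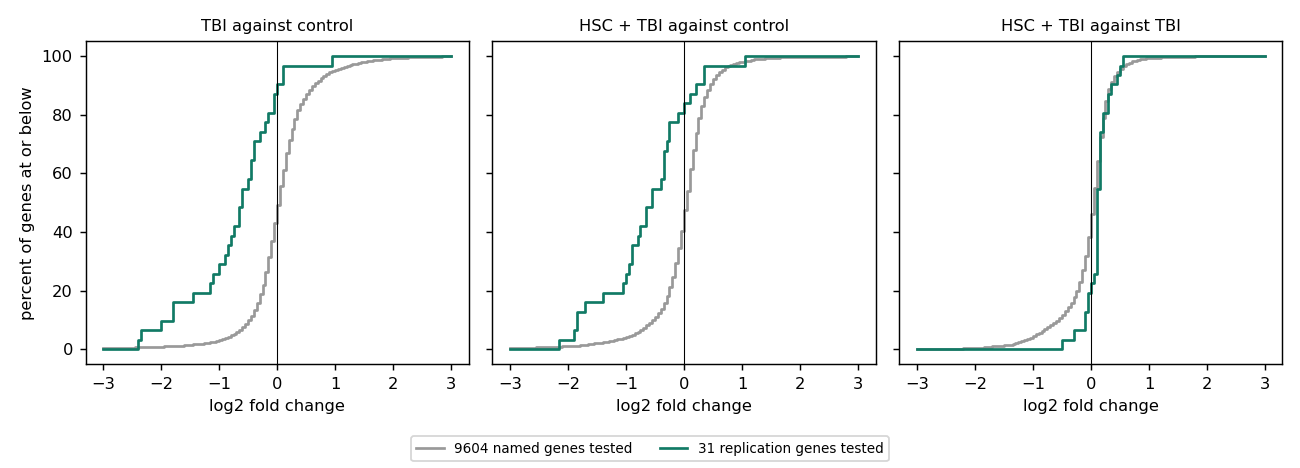
Each panel gives, for 1 comparison, the percent of genes (vertical axis) with a log2 fold change at or below the value on the horizontal axis, for the 31 tested DNA replication genes (green) and the 9604 named genes tested (grey). At a log2 fold change of -0.5 the green line stands at 58.1% and the grey at 9.94% for TBI against control. For HSC + TBI against control they stand at 54.8% and 10.9%. In the direct comparison, at a log2 fold change of 0, the green line stands at 22.6% and the grey at 46.1%.

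E2f1, the transcription factor that activates many genes of the G1/S transition, had log2 signals of 6.84, 6.87 and 7.07 in controls. They were 4.25, 4.58 and 4.86 after TBI and 4.52, 4.84 and 4.92 after HSC + TBI. Every irradiated rat was far below every control. The TBI mean was 5.15-fold lower (log2 -2.36, SE 0.18, limma adjusted p = 0.000375).

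Among the origin licensing genes, Cdt1, which brings MCM to the origin, read 4.42, 4.19 and 4.81 in controls and 3.63, 2.02 and 2.31 after TBI. All controls were above all TBI rats, but only 1 of the 3 TBI arrays had the probe above background. The log2 fold change was -1.82 (SE 0.43, limma adjusted p = 0.0383). Gmnn, the inhibitor of Cdt1 that prevents licensing from being repeated, read 5.32, 6.04 and 6.11 in controls and 4.62, 5.06 and 5.08 after TBI, 1.87-fold lower (limma adjusted p = 0.0424). Orc1, Orc6 and Cdc6 were above background on all 3 arrays of no group and were not tested.

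The MCM ring unwinds DNA at the fork. Mcm6 showed tight controls at 5.40, 5.35 and 5.39 and fell to 2.82, 3.12 and 2.97 after TBI. This was 5.32-fold lower (log2 -2.41, SE 0.24, limma adjusted p = 0.00124), with the probe above background on 1 of 3 TBI arrays. Mcm2 read 5.80, 5.99 and 6.20 in controls and 4.78, 4.87 and 4.85 after TBI. It was measured on every array, and the groups did not overlap. Mcm2 was 2.24-fold lower (limma adjusted p = 0.00434), and its dimmer probe had a log2 fold change of -1.23 and was not called (adjusted p = 0.105). Mcm4 was 2.19-fold lower by its brighter probe (limma adjusted p = 0.0274), while its dimmer probe, not above background on every array, gave -0.10. Mcm10, which is not part of the ring, had a log2 fold change of -0.09 with a 95% interval of -0.38 to 0.20.

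Cdc45 and GINS turn the loaded ring into a helicase. Cdc45 read 8.34, 8.42 and 8.30 in controls, 6.66, 6.52 and 6.42 after TBI and 6.41, 6.65 and 6.87 after HSC + TBI. The irradiated rats formed 1 range well below the controls. The TBI mean was 3.53-fold lower (log2 -1.82, SE 0.14, limma adjusted p = 0.000375). Gins3, a GINS subunit, read 4.95, 5.22 and 4.55 in controls and 3.47, 3.29 and 3.48 after TBI, 2.81-fold lower (limma adjusted p = 0.00296), with 2 of 3 TBI arrays above background. Gins2 was above background on 2 of the 9 arrays and was not tested.

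**Figure D3:**
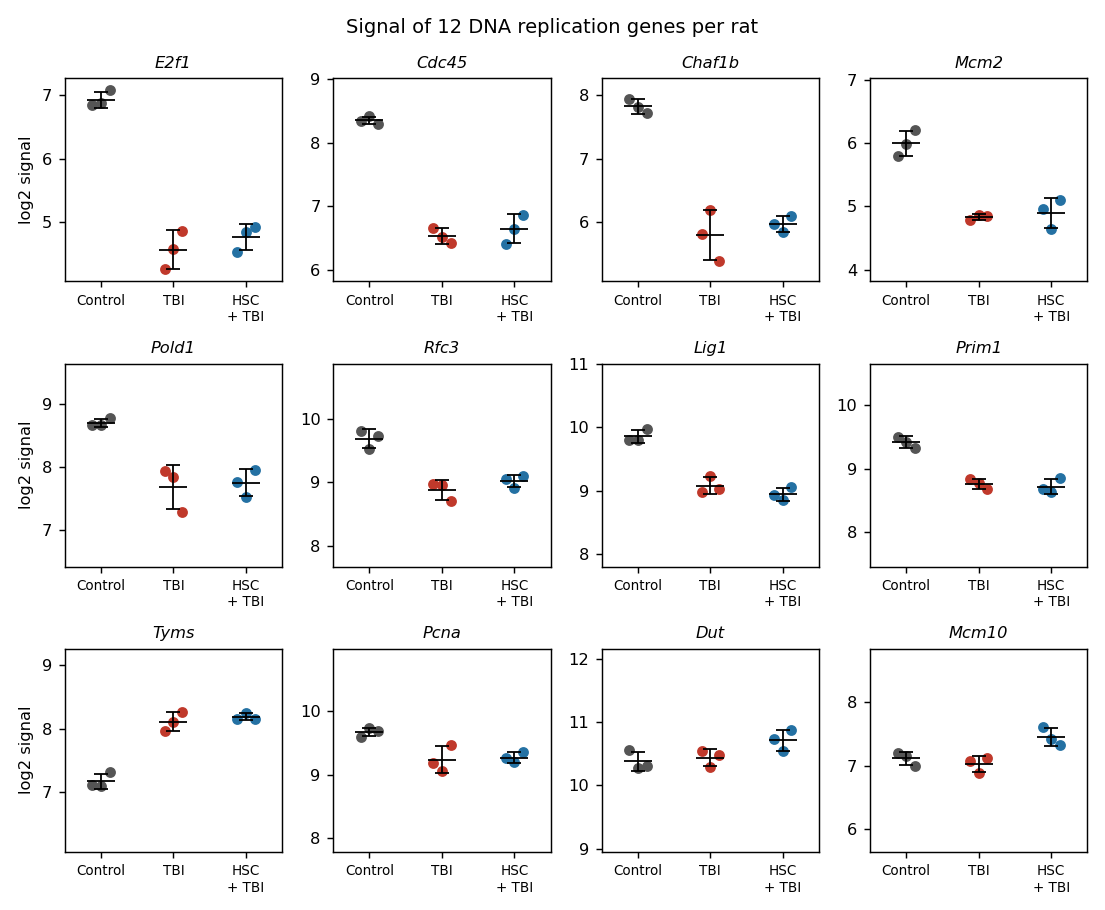
Points are the log2 signals of 12 DNA replication genes in single rats, by group, with the group mean (long bar) and SD (whiskers), n = 3; each panel spans the same log2 range but starts at its own level. Control points stand above all irradiated points for E2f1, Cdc45, Chaf1b, Mcm2, Pold1, Rfc3, Lig1, Prim1 and Pcna, and below them for Tyms; for Dut and Mcm10 control and TBI points overlap.

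Of the 6 tested genes of polymerases and primase, 2 fell after TBI. Prim1, the catalytic subunit of the primase that lays down RNA primers, read 9.50, 9.42 and 9.32 in controls and 8.83, 8.77 and 8.68 after TBI. The drop was modest but the rats of a group lay close together, so that the 1.57-fold change passed (log2 -0.65, SE 0.11, limma adjusted p = 0.0124). Its other probe gave -0.69 and was called as well. Pold1, the catalytic subunit of polymerase delta, read 8.66, 8.66 and 8.77 in controls and 7.94, 7.84 and 7.29 after TBI, 2.01-fold lower (limma adjusted p = 0.0161). The other 4 tested genes of this group had log2 fold changes of -0.24 to 0.08 and were not called. Pola2 and Pole2 were above background on no array.

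Proliferating cell nuclear antigen, Pcna, forms the sliding clamp, and the RFC complex loads it. Rfc3 read 9.82, 9.52 and 9.73 in controls and 8.97, 8.96 and 8.71 after TBI. It was 1.75-fold lower (limma adjusted p = 0.00931), the one called gene of the 5. Rfc2 and Rfc4, named after their values were seen, passed the adjusted p (0.0343 and 0.049) but not the fold minimum, with log2 fold changes of -0.49 and -0.41. The Pcna probes differed. The brighter read 9.60, 9.74 and 9.68 in controls and 9.18, 9.07 and 9.47 after TBI (log2 -0.44, limma adjusted p = 0.0782), whereas the dimmer gave 0.00 with a 95% interval of -0.52 to 0.52. Neither was called.

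Lig1, the ligase that joins Okazaki fragments, read 9.80, 9.80 and 9.97 in controls and 8.98, 9.23 and 9.03 after TBI. Its rats did not overlap, and it was 1.71-fold lower (limma adjusted p = 0.00794). Fen1, the flap endonuclease that trims those fragments, read 10.75, 10.76 and 10.56 in controls and 10.47, 10.07 and 9.54 after TBI. The TBI rats spread widely, and the 1.59-fold lower mean was not called (limma adjusted p = 0.101).

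The nucleotide supply genes did not move one way. Tyms, thymidylate synthase, which makes dTMP, read 7.11, 7.11 and 7.31 in controls. It read 7.97, 8.11 and 8.27 after TBI and 8.16, 8.25 and 8.16 after HSC + TBI. All irradiated rats were above all controls, the reverse of the rest of the called genes. The TBI mean was 1.92-fold higher (log2 0.94, SE 0.12, limma adjusted p = 0.00396). Tk1, thymidine kinase of the salvage route to the same product, read 6.92, 7.33 and 7.49 in controls and 6.15, 6.55 and 6.45 after TBI, 1.82-fold lower (limma adjusted p = 0.0286).

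Rrm1, the large subunit of ribonucleotide reductase, was 1.56-fold lower by its brightest probe (limma adjusted p = 0.0278). Its 2 further probes gave log2 fold changes of -0.84, not called, and -1.07, called (adjusted p = 0.00446). The probes of Rrm2, the small subunit, disagreed. The brighter read 4.78, 5.37 and 5.12 in controls and 4.68, 4.04 and 5.0 after TBI and was not called (log2 -0.51, limma adjusted p = 0.292). The other read 4.78, 5.27 and 5.37 in controls and 2.98, 2.22 and 3.20 after TBI and was called (log2 -2.34, adjusted p = 0.00517), with 1 of 3 TBI arrays above background. So Rrm2 depended on the probe. Dut, the dUTPase that keeps uracil out of DNA, had a log2 fold change of 0.05 (95% interval -0.26 to 0.37).

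Chaf1b, a subunit of the chromatin assembly factor that places histones behind the fork, read 7.94, 7.81 and 7.72 in controls. It read 5.81, 6.18 and 5.39 after TBI and 5.97, 5.84 and 6.10 after HSC + TBI. No irradiated rat came near the controls. The TBI mean was 4.08-fold lower (log2 -2.03, SE 0.19, limma adjusted p = 0.00114).

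The count after TBI depended on the background correction, the test and 1 control. With normexp background correction 5 of the 31 genes were called, with a median log2 fold change of -0.27, and without control 3 the count was 10. The methods' t-test with adjusted p and the same fold minimum called 3. The share of all named genes called under these settings is not given here.

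The second question was whether the same genes differed from control when HSC came before TBI. After HSC + TBI, 11 of the 31 tested genes fell and Tyms rose. Of all named genes tested, 2.71% were called lower and 1.18% higher in this comparison. All 12 were among the 16 called after TBI, in the same direction. Both comparisons share the 3 control rats, so the overlap is not independent. In 26 of the 31 the mean was below control, and the median log2 fold change was -0.56, against 0.02 over all named genes. Cdt1 and Mcm6 were dim on all HSC + TBI arrays. Set at their bound, both still lay below this median, so the bounds could not move it. Of the 26 genes above background on all 9 arrays, 9 fell and 1 rose, with a median of -0.48. Rats did not overlap with controls for 25 of the 31 genes, 23 lower and 2 higher, beside 16.9% lower and 17.6% higher of all named genes tested.

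E2f1 was 4.49-fold lower than control after HSC + TBI (log2 -2.17, SE 0.18, limma adjusted p = 0.000727), Cdc45 3.27-fold (limma adjusted p = 0.000672) and Chaf1b 3.61-fold (limma adjusted p = 0.00214). Mcm2 read 4.96, 4.64 and 5.10 after HSC + TBI, and was 2.14-fold lower (limma adjusted p = 0.00774). Mcm6 read 2.86, 3.68 and 3.84, on arrays none of which had it well above background. Set against each array's dimmest signal that still counted as above background, or the probe's own signal if that was higher, control was at least 3.15-fold higher. This bound has no p-value, and the test was of the measured log2 fold change, -1.92 (limma adjusted p = 0.00434). Gmnn read 4.40, 4.41 and 4.35, below every TBI rat too, and was 2.70-fold lower than control (limma adjusted p = 0.012).

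Lig1 read 8.93, 8.85 and 9.05 and was 1.88-fold lower than control (limma adjusted p = 0.00612). Prim1 was 1.62-fold lower (limma adjusted p = 0.0146), Pold1 1.92-fold (limma adjusted p = 0.0338) and Rfc3 1.59-fold (limma adjusted p = 0.0322). After TBI alone these 4 genes of the fork had been 1.71, 1.57, 2.01 and 1.75-fold lower in the same order, against the same controls. Gins3 read 4.07, 3.76 and 3.99, between the control and the TBI rats, and was 1.95-fold lower than control (limma adjusted p = 0.0271), with 1 of 3 arrays above background. Tyms was 2.02-fold higher than control (limma adjusted p = 0.00371).

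Cdt1, Mcm4, Rrm1 and Tk1 were called after TBI but not after HSC + TBI. Mcm4 had a log2 fold change of -1.04 (limma adjusted p = 0.0606), Rrm1 of -0.56 (limma adjusted p = 0.0692) and Tk1 of -0.79 (limma adjusted p = 0.0633). Cdt1 was dim on all 3 HSC + TBI arrays, and control was at least 1.8-fold higher, with a measured log2 fold change of -1.89 (limma adjusted p = 0.0545). Each had the same direction as after TBI, and none of them was called between the irradiated groups. The dimmer Rrm2 probe was also dim on all 3 HSC + TBI arrays, with control at least 2.86-fold higher. Its measured log2 fold change was -3.37 (limma adjusted p = 0.0014), while the brighter probe was not called (log2 -0.84, adjusted p = 0.149).

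The count of 12 was 5 with normexp background correction, 7 without control 2 and 7 without HSC + TBI 1. The methods' t-test with adjusted p called 4. For these settings too, the share of all named genes called is not given here.

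**Figure D4:**
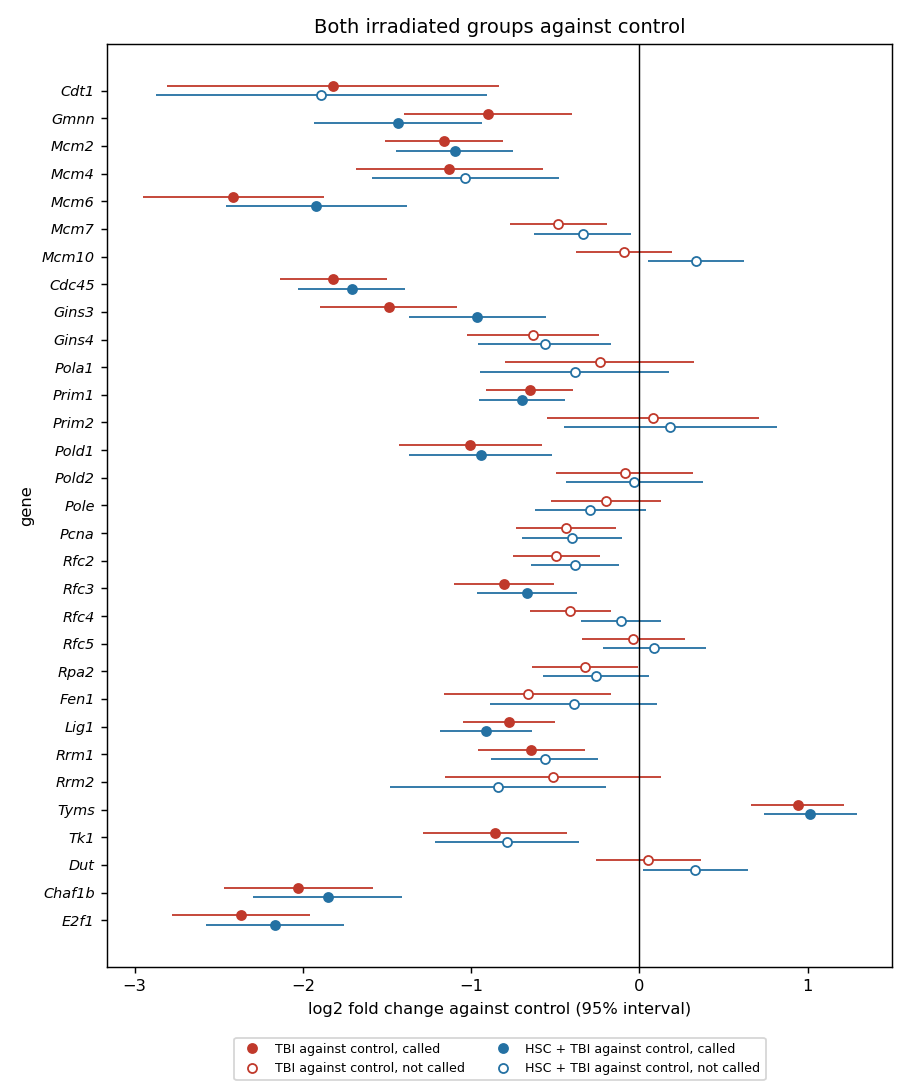
Points are the log2 fold changes of the 31 tested DNA replication genes for TBI against control (red) and HSC + TBI against control (blue), with 95% intervals from limma as lines; filled points were called. Most points of both colours lie left of 0, E2f1 at -2.36 and -2.17, and Tyms lies right of it at 0.94 and 1.02. For Cdt1 and Mcm6 the blue points rest on signals not well above background.

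The third question was whether HSC before TBI changed the level reached after TBI. None of the 31 genes was called between HSC + TBI and TBI by limma. By the same rule 0.791% of all named genes tested were called. At an unadjusted p under 0.05, 4 of the 31 passed, beside 15% of all named genes tested. The methods' t-test with the same fold minimum called 0 with or without adjustment, and the smallest adjusted p in limma was 0.161, for Mcm10. In 24 of the 31 genes the HSC + TBI mean was the higher, beside 5174 of 9604 named genes tested. The median log2 difference was 0.08, against 0.02 over all named genes. Among genes above background on all 9 arrays, 22 of 26 members were higher, beside 4829 of 8530 named genes.

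How large a difference the data still allow is given by the intervals. Of the 15 genes that fell after TBI, 12 were above background on all 9 arrays, and for these the 95% interval of the log2 difference had a half-width of 0.256 to 0.555, with a median of 0.379. It held 0 for 11 of the 12, Gmnn being the other, and its bounds ran from -1.04 to 0.65. With Cdt1, Mcm6 and Gins3, which were dim on some or all irradiated arrays, the half-width reached 0.985. The narrowest was that of Prim1, -0.30 to 0.21. For E2f1 the log2 difference was 0.20 (95% interval -0.21 to 0.61), for Cdc45 0.11 (-0.21 to 0.43), for Chaf1b 0.17 (-0.27 to 0.62) and for Mcm2 0.06 (-0.29 to 0.41). For each of these 4 genes the upper bound stayed below the size of the drop after TBI, the smallest of which was that of Mcm2, which fell by 1.16 on the log2 scale.

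Rats of HSC + TBI and TBI did not overlap for 6 of the 31 genes, 1 lower and 5 higher after HSC + TBI, beside 11% lower and 10.3% higher of all named genes tested. These 6 were named after their values were seen. Mcm10 read 7.08, 6.88 and 7.13 after TBI and 7.61, 7.43 and 7.33 after HSC + TBI (log2 difference 0.43, limma adjusted p = 0.161). Gins3 differed by 0.53 (95% interval 0.12 to 0.93, limma adjusted p = 0.204) and Rfc4 by 0.30 (0.06 to 0.54, limma adjusted p = 0.213). Rfc2 and Dut were the others that were higher, by 0.11 and 0.28. Gmnn alone was lower (log2 difference -0.54, limma adjusted p = 0.277), and so farther from control.

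Further probes of the same genes gave other values. For Rrm1 the dimmest probe differed by 0.71 (95% interval 0.39 to 1.04, limma adjusted p = 0.0696), whereas the brightest differed by 0.08. For Dut the dimmer probe differed by 0.37 (95% interval 0.14 to 0.61, limma adjusted p = 0.143), near the 0.28 of the first. For Rrm2 the dimmer probe went the other way, by -1.02 (95% interval -1.76 to -0.29, limma adjusted p = 0.181). It was above background on 1 of 3 TBI arrays and on no HSC + TBI array. The brighter Rrm2 probe differed by -0.33.

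**Figure D5:**
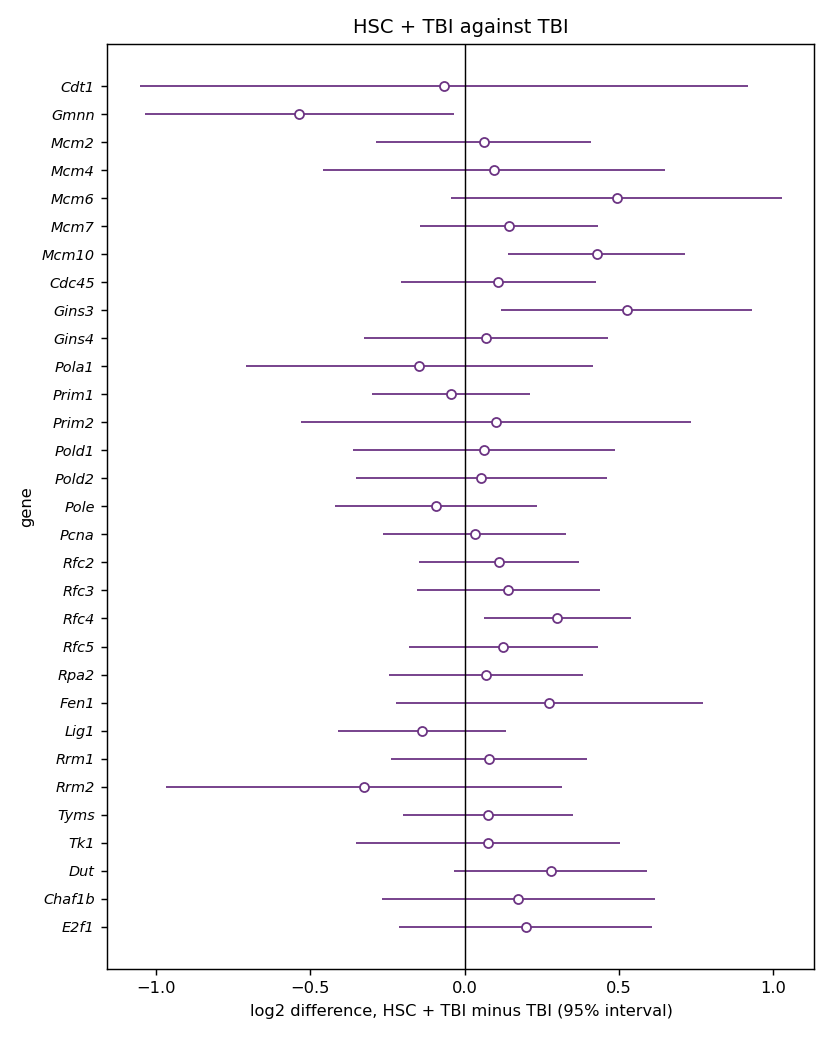
Points are the log2 differences of the 31 tested DNA replication genes between HSC + TBI and TBI, with 95% intervals from limma; a point right of 0 is higher after HSC + TBI. The intervals of 27 genes cross 0, and none of the 31 genes was called.

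Related genes outside the list were read in the same way. Of 38 further replication genes, such as accessory polymerase subunits and histone chaperones, 27 were tested. After TBI 2 of them fell and none rose, beside 3.92% lower and 3.87% higher of all named genes tested. At an unadjusted p under 0.05 there were 8, which 26.1% of all named genes tested passed, and the median log2 fold change was -0.07. Timeless, which steadies the fork, was lower by a log2 fold change of -0.93 (limma adjusted p = 0.00222), and Recql4, a helicase that acts at initiation, by -1.30 (limma adjusted p = 0.0172). After HSC + TBI, Timeless was the 1 called (log2 -0.64, limma adjusted p = 0.0159), and the median was 0.04. Of all named genes tested, 2.71% were called lower and 1.18% higher in this comparison, so the count is near that share. None was called between the irradiated groups by limma, with 3 at an unadjusted p under 0.05, beside 0.791% and 15% of all named genes tested.

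Of 29 E2F and G1/S genes, 19 were tested. After TBI 2 fell and 1 rose, beside 3.92% lower and 3.87% higher of all named genes tested. Ccna2, cyclin A2 of S phase, read 6.11, 7.01 and 7.04 in controls and was well above background on no TBI array, so control was at least 14.7-fold higher. The test was of its measured log2 fold change, -4.42 (limma adjusted p = 0.00446). Cdkn2c, an inhibitor of Cdk4 and Cdk6, had a log2 fold change of -1.58 (limma adjusted p = 0.0136). Cdkn1a, the p53 target p21 that holds cyclin-dependent kinases in check, had a log2 fold change of 5.37 after TBI and 4.88 after HSC + TBI (limma adjusted p = 3.48e-05 and 8.93e-05). After HSC + TBI Ccna2 was also called (log2 -3.70, limma adjusted p = 0.0137, above background on 1 of 3 arrays). Of all named genes tested, 2.71% were called lower and 1.18% higher after HSC + TBI. No gene of the list was called between the irradiated groups by limma, with 1 at an unadjusted p under 0.05, beside 0.791% and 15% of all named genes tested.

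Summed signals of markers of other cell types were read in the same rats. Of 15 T and B lymphocyte markers, 13 had a probe, and 9 to 10 of them were above background on control arrays, 7 to 8 on TBI arrays and 6 to 8 on HSC + TBI arrays. Cd3e and Cd5 were not above background on any array. The summed signal of the list was 871 to 1176 in controls, 538 to 772 after TBI and 465 to 545 after HSC + TBI. Of the 10 tested lymphocyte markers, Cd3g, Cd2 and Cd79b fell after TBI, and Cd3g, Cd79b and Zap70 after HSC + TBI. Of all named genes tested, 3.92% and 2.71% were called lower. By mean, 7 of the 10 were lower and 3 higher after TBI, and 9 and 1 after HSC + TBI. Cd2 and Cd79b were above background on no TBI array, and Cd3g and Cd79b on no HSC + TBI array. Their calls there rest on the control signal. Between HSC + TBI and TBI, Cd2 and Cd8b were called, 1 in each direction, beside 0.791% of all named genes tested. Among the irradiated arrays, Cd2 was above background on HSC + TBI 1 alone. The 8 erythroid markers with a probe summed to 2062 to 5040, 1401 to 2805 and 1219 to 1928 in the same order. Of the 5 tested, 3 were lower and 2 higher by mean after TBI, with a median log2 fold change of -1.06. Epb42 was the 1 called, higher after TBI by 1.53 on the log2 scale, beside 3.87% of all named genes tested. Among controls it was above background on control 1 alone. The 8 granulocyte markers with a probe summed to 383 to 624, 393 to 790 and 243 to 314. The 10 Kupffer cell and macrophage markers summed to 91159 to 142521, 95710 to 178683 and 66998 to 72484. Control and TBI ranges overlapped for the erythroid, granulocyte and Kupffer lists alike. For each of these lists the HSC + TBI range lay wholly below the control range. None of the 10 Kupffer cell and macrophage markers was called by limma in any comparison, with 1, 5 and 9 at an unadjusted p under 0.05, which 26.1%, 21.9% and 15% of all named genes tested passed. By mean, 1 of the 10 was lower and 9 higher after TBI. All 10 were lower after HSC + TBI, against control and against TBI alike. The median log2 fold changes were 0.28, -0.60 and -0.96 in the same order. Of all named genes tested, 49.4%, 47.4% and 46.1% were lower. The 7 sinusoidal endothelial markers with a probe summed to 16150 to 20493, 23132 to 26226 and 20894 to 22796. The 9 stellate cell markers with a probe summed to 12738 to 15058, 9732 to 18501 and 11551 to 12308, and the 3 cholangiocyte markers to 390 to 520, 351 to 657 and 432 to 481. Of the 9 stellate markers, Lrat was called lower after TBI (limma adjusted p = 0.0237), beside 3.92% of all named genes tested. By mean, 4 of the 9 were lower and 5 higher after TBI. The part of these cells in the lower replication signal was not tested.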

How the data were processed

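Liver RNA of 9 rats was read on 9 one-colour arrays. The authors extracted spot intensities with Agilent Feature Extraction (10.7 per the labels, 10.7.3.1 per the file headers) and deposited processed signal intensity and flags per spot. They also deposited log2 values that they had normalized by quantiles. Processed intensities, without control and outlier spots (84 to 115 per array), were floored at 1 and log2-transformed, and limma 3.58.1 (R 4.3.3) normalized them by quantiles before spots were averaged per probe. They differed from the deposited log2 values by a median of 0.03. Probes marked above background on more than 0.5 of their spots on every array of a group were tested (25367 of 41012). Gene names came by RefSeq accession from RefSeq genes of assembly GRCr8, for 16968 probes. Array coordinates (rn4) were not used.

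Groups were taken from the labels and compared by limma (lmFit and eBayes, 1 fit of 3 group means), and 95% intervals come from that fit. The number of arrays limits precision, and an exact two-sided permutation test of 3 against 3 rats cannot go below 0.1. The step was tested on simulated data. The members and lists were chosen with earlier results of these data known. Named genes are the called members, in each role the one with the smallest p after TBI and the brightest, Pcna and E2f1, members never above background, members whose probes disagree, called genes of the 2 further lists, and Cdkn1a. Alternatives were a 75th percentile shift, normexp (offset 50), the authors' values, other probe filters, outlier spots kept, compared groups alone, mean of a gene's probes, replicate and slide blocks, each rat left out, the methods' t-test, and no fold minimum. Protein sequences were not used here.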

Additional observations from a re-analysis of the deposited data

How the results depend on the processing

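Of 38 gene comparisons with control (those called among members and further genes, and Rrm2), 12 were called under every alternative read gene by gene, which leaves out the methods' t-test and the setting with no fold minimum, read as counts only. Among the 12 were those of Cdc45, Chaf1b and E2f1 against control in both irradiated groups. Of 713 such values, 614 kept direction and call, 96 lost the call, 3 of Rrm2 gained one and none reversed. With normexp background correction 5 members were called in each comparison with control, with medians of -0.27 after TBI and -0.26 after HSC + TBI. The methods' t-test with adjusted p called 3 and 4, and with unadjusted p 17 and 16. Shares of all named genes called are given for the main limma fit only. Counts of members under the alternatives therefore have no such share beside them. When single rats were left out, 10 to 15 members were called after TBI and 7 to 13 after HSC + TBI. The median after HSC + TBI was then -0.70 to -0.54, that after TBI -0.69 to -0.61 and that between the irradiated groups 0.05 to 0.16. The median after HSC + TBI was -0.61 with a 75th percentile shift, -0.62 without a filter and -0.48 over probes above background on all 9 arrays. No member was called between the irradiated groups under any alternative. The cause of these differences was not tested.

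Replicate numbers were not used to pair the rats in the main fit. Correlations of same-numbered rats ran from -0.14 to 0.19, and 5 of 9 rats matched best with a rat of their own number. These values do not settle whether the numbers pair rats. With the replicate block 16 and 10 members were called against control. Depth on these arrays is signal over background, and members near it rest on few arrays: Cdt1, Mcm6 and Gins3 were not well above background on all irradiated arrays.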
